A study of Mus musculus with 59 samples.

Results

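Binding sites of BCL6, PPARα and PPARδ were examined at 9 genes that release fatty acids from triglyceride in the liver or regulate that release, out of 21774 protein-coding genes. The genes were *Pnpla2*, *Pnpla3*, *Lipe*, *Mgll*, *Abhd2*, *Abhd5*, *G0s2*, *Lipa* and *Lipc*. A peak belonged to a gene if its center lay inside it, or if the gene owned the nearest protein-coding transcription start site (TSS) within 100 kb. Peaks of any list whose centers lay within 200 bp of each other were counted as 1 site. Of 40474 sites in 7 peak lists, 77 belonged to these genes by this rule, and 73 of them were in at least 1 list from C57BL/6 livers.

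The chromatin came from livers of male mice, with 3 biological replicates, each from a different animal, behind every list. BCL6, PPARα and PPARδ were each mapped in wild-type C57BL/6 mice that were fed ad libitum and in wild-type C57BL/6 mice fasted overnight. A seventh list held BCL6 peaks from ad libitum fed Bcl6 fl/fl mice on the same strain, which carry loxP sites in *Bcl6* and no Cre, and which the labels also call wild type. Whole liver was used, so the lists by themselves do not resolve the cell type behind a peak. For BCL6, the study obtained highly similar peaks with hepatocyte-specific *Bcl6* knockout livers as background. It took the BCL6 sites to reflect binding in hepatocytes. Each list pools its replicates into positions with no height, count or p-value. Every site is therefore either present in a list or missing from it, the depth behind it is unknown, and no value below carries an error between animals or a test of the difference between feeding states. A site not called in a list is not shown to be unbound there.

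Stored triglyceride is broken down in steps. PNPLA2, also known as ATGL, removes the first fatty acid, LIPE (hormone-sensitive lipase) acts mainly on the diacylglycerol that results, and MGLL (monoglyceride lipase) releases the last fatty acid. ABHD5, also known as CGI-58, activates PNPLA2 and G0S2 inhibits it. LIPA is the acid lipase of lysosomes, and LIPC is the hepatic lipase, which is secreted and acts on lipoproteins. In fasted liver, fatty acids released from triglyceride are burned by oxidation and can activate PPARα, whereas BCL6 is a zinc finger repressor that recruits SMRT and NCoR corepressors.

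Every one of the 9 genes had a PPARα site and a PPARδ site, and 8 had a BCL6 site, with *Pnpla2* as the exception. Across all protein-coding genes, 48.6% had a PPARα site, 20.7% a PPARδ site and 30.3% a BCL6 site in either feeding state of C57BL/6 mice. List by list, 8 of the 9 genes had a BCL6 site in fed livers (28.4% of all genes) and 7 in fasted livers (20.9%), and 8 had one in fed Bcl6 fl/fl livers (31.2%). A PPARα site was present at all 9 in fed (34.7%) and in fasted livers (46.5%), and a PPARδ site at all 9 in fed livers (18.8%) and at 7 in fasted livers (8.79%). A single site bearing both BCL6 and PPARα was found at 7 of the 9 genes, against 25.4% of all genes. The same 7 genes, all but *Pnpla2* and *Lipe*, had a site bearing all 3 factors, against 12.7% of all genes. Among 18 other lipid hydrolases, described below, 13 had a site with BCL6 and PPARα (72.2%) and 9 a 3-factor site (50.0%). Among 12 genes of triglyceride synthesis, the numbers were 9 (75.0%) and 8 (66.7%). Such sites were thus common in these lipid genes too. The 9 genes had a median of 8 C57BL/6 sites per gene and all genes a median of 1.

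**Figure D1:**
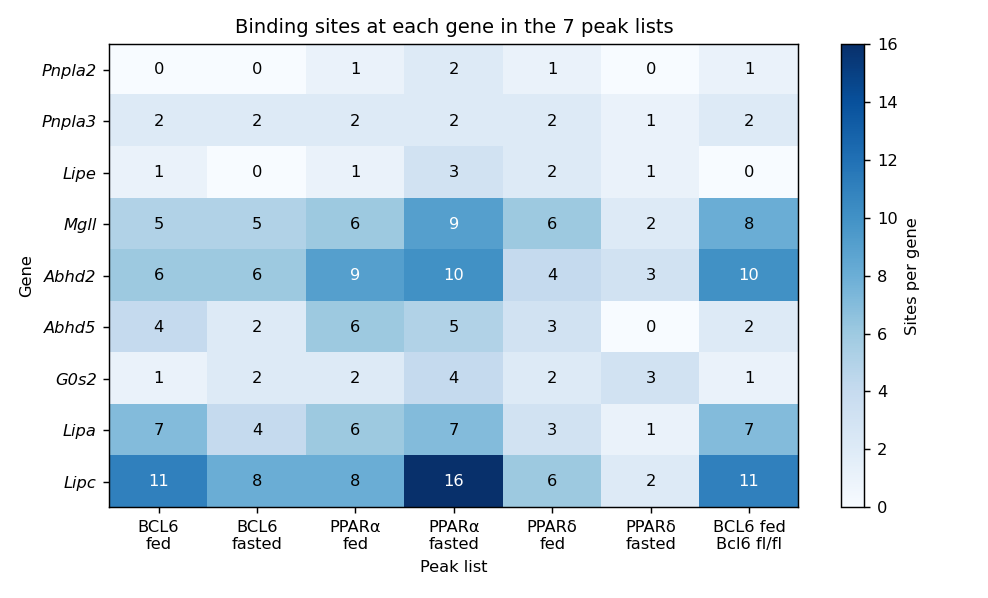
Number of sites at each gene (vertical axis) in each peak list (horizontal axis), with darker blue for more sites. *Lipc* in the fasted PPARα list holds the most, with 16 sites, and *Pnpla2* has 0 sites in both C57BL/6 BCL6 lists.

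Long genes and genes with distant neighbors can collect more peaks, so the counts were also set against the length of genome assigned to each gene. *Lipc*, with 18 C57BL/6 sites, was assigned 254 kb and reached 7.08 sites per 100 kb. *Mgll* and *Abhd2*, with 12 sites each, reached 7.87 and 7.98 sites per 100 kb. Higher densities were found for *G0s2*, with 31.6 sites per 100 kb, *Pnpla2*, with 21.4, *Lipe*, with 20.1, and *Lipa*, with 17.1. *Abhd5* and *Pnpla3* were the lowest of the 9, at 6.22 and 4.54. The median density was 7.98 over the 9 genes and 0.526 over all protein-coding genes, 51.8% of which had any C57BL/6 site.

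**Figure D2:**
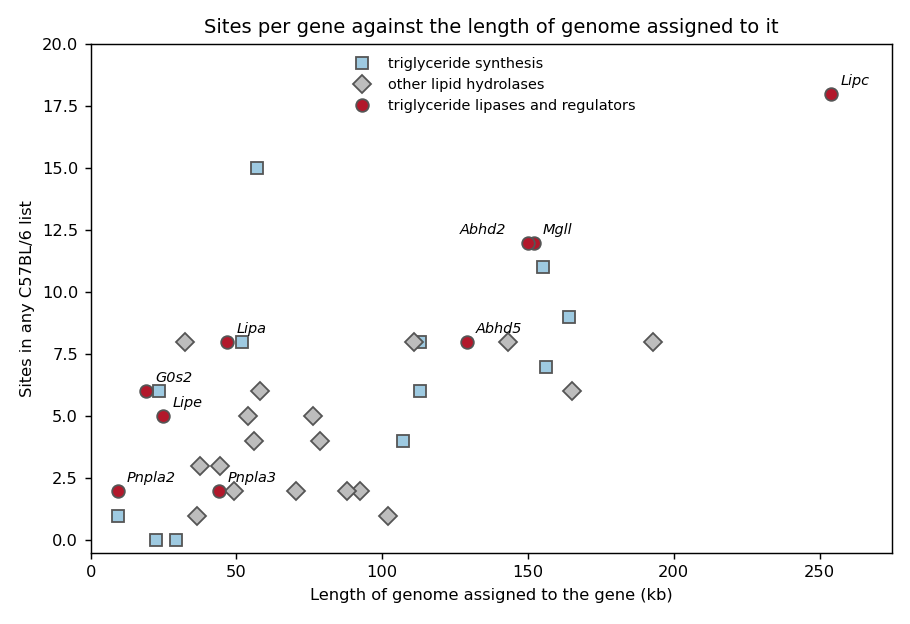
Sites in any C57BL/6 list (vertical axis) against the length of genome assigned to a gene in kb (horizontal axis), with 1 point per gene. Red circles are the 9 genes, gray diamonds 18 other lipid hydrolases and blue squares 12 genes of triglyceride synthesis. *Lipc* lies at 254 kb with 18 sites and *G0s2* at 19.0 kb with 6.

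The DNA under 8 of the sites is shown to let the positions of binding elements be read. Windows of 200 bp around each site's center were searched on both strands for the BCL6 element TTCCTAGAA with up to 1 mismatch. They were also searched for a DR1 element with up to 2 mismatches, which is the direct repeat of AGGTCA with 1 base between the copies that PPARs bind together with RXR. Sequences are the plus strand of mm10, 5′ to 3′, with matches in capitals. An element on the minus strand therefore reads as its reverse complement. The first 3 are the sites with an exact BCL6 element, in *Abhd2* (chr7:79310327-79310526), *Lipa* (chr19:34498901-34499100) and *Lipc* (chr9:70827930-70828129). The fourth, upstream of *Mgll* (chr6:88717489-88717688), is the site with an exact DR1. The next 2 are sites called in all 7 lists, in *Pnpla3* (chr15:84168516-84168715) and *Mgll* (chr6:88733316-88733515). The last 2, in *Pnpla2* (chr7:141456799-141456998) and upstream of *Lipc* (chr9:71028207-71028406), changed with fasting in opposite directions for a pair of factors. Names give the distance in bp of the site's center from the gene's nearest TSS, positive in the direction of transcription. The 8 sites were chosen after their values were seen.
Abhd2 +37161: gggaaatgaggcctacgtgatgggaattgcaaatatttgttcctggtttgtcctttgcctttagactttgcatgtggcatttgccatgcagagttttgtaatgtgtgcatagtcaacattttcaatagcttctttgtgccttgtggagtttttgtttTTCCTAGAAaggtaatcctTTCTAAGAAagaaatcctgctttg
Lipa +28473: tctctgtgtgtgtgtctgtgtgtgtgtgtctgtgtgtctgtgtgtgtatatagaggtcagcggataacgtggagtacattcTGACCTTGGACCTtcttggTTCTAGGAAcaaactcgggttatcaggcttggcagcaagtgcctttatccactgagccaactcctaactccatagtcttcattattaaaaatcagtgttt
Lipc +106778: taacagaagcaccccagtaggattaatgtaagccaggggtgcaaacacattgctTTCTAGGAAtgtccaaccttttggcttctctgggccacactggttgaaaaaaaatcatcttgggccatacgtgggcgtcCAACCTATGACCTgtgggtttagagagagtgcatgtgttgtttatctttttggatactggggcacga
Mgll −6823: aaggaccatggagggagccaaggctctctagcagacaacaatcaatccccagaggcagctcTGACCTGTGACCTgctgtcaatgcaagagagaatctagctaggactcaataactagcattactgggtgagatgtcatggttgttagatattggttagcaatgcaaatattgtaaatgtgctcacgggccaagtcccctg
Pnpla3 +800: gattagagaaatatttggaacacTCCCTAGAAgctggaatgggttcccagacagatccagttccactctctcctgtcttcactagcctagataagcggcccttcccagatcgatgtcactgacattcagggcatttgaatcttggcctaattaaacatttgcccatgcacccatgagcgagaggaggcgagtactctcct
Mgll +8712: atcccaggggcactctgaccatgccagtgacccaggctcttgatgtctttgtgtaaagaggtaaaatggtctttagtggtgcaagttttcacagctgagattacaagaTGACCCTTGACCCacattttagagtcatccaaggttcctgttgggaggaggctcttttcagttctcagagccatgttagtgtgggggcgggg
Pnpla2 +1711: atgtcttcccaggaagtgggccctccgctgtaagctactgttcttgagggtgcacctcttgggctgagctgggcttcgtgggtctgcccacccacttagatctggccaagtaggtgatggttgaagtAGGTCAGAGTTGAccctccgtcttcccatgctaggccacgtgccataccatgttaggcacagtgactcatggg
Lipc −76086: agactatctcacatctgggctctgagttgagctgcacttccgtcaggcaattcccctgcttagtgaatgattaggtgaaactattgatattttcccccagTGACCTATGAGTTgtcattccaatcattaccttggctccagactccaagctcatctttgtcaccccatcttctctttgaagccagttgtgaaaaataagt

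At *Lipa* +28473, the exact BCL6 element was centered 4 bp from the site's center and a DR1 with 1 mismatch at −13 bp. At *Lipc* +106778, the exact BCL6 element lay at −42 bp and a DR1 with 2 mismatches at 39 bp. *Abhd2* +37161 had its exact BCL6 element at 61 bp and another with 1 mismatch, TTCTTAGAA, at 80 bp, and no DR1. Of all 77 sites, 17 held a BCL6 element (22.1%, 95% Wilson interval 14.3% to 32.5%), against 10.9% of all 40474 sites. A DR1 was found in 18 (23.4%, 15.3% to 34.0%), against 13.1% of all sites. Both elements occurred together in 4 of the 77 (5.19%), against 1.23% of all sites. Exact elements were few, with 3 for BCL6 and 1 for DR1. At sites with a BCL6 peak in C57BL/6 livers, 10 of 40 held the BCL6 element (25.0%), against 15.3% of all BCL6 sites, and 18 of 63 PPARα sites held a DR1 (28.6%), against 14.0% of all PPARα sites. In windows of 100 bp these were 5 of 40 (12.5%), against 9.67%, and 14 of 63 (22.2%), against 9.19%. The BCL6 element was hardly tied to BCL6 calls at these genes. All 77 sites, with or without a BCL6 peak, held it in 22.1% at 200 bp and in 10 (13.0%) at 100 bp. Among the 9 genes, counting sites of any list, *Abhd2* had the most sites with a BCL6 element, 5 of 13, and *Lipc* the most with a DR1, 7 of 20. Not all of these *Abhd2* sites had a BCL6 peak in C57BL/6 livers. A match of letters describes the sequence and does not show which protein was bound to it.

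Most sites lay in introns. Of the 77 sites, 54 lay in introns, 16 upstream and 3 downstream of the gene, and 3 in exons, by the longest curated transcript of each gene. A further site, *Lipe* −5, lay within the annotated bounds of the gene but 5 bp upstream of one of its TSSs. A promoter was taken as 1000 bp upstream to 100 bp downstream of a TSS, and 4 of the 73 C57BL/6 sites (5.48%) fell in one, against 11.9% of all C57BL/6 sites.

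The feeding states differed in the number of peaks that each factor had at these genes. BCL6 had 37 peaks in the fed list and 29 in the fasted list, PPARα had 41 and 58, and PPARδ had 29 and 13. The whole lists changed in the same directions, from 15642 to 9613 peaks for BCL6, from 21410 to 29085 for PPARα and from 7328 to 2399 for PPARδ. How much of the difference in size between 2 lists reflects the sequencing depth was not tested.

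Most fed BCL6 sites at the lipase genes were called again after fasting. Of 37 fed BCL6 sites, 26 were also in the fasted list (70.3%, 54.2% to 82.5%), against 49.1% of all fed BCL6 sites. Over both states, 26 of 40 BCL6 sites were called in fed and fasted livers (65.0%, 49.5% to 77.9%), 11 in fed livers only (27.5%, 16.1% to 42.8%) and 3 in fasted livers only (7.50%). The corresponding shares over all BCL6 sites were 43.7%, 45.3% and 11.0%. The fed Bcl6 fl/fl list held 28 of the 37 fed sites (75.7%, 59.9% to 86.6%), against 69.6% of all fed BCL6 sites. Among the 28 called in both fed lists, 22 were also called after fasting (78.6%), against 62.6% overall. Of the remaining 9 fed sites, 4 were called after fasting (44.4%, 18.9% to 73.3%), against 18.2% overall. None of these differences was tested, because a list has no replicates and no peak heights. A site called in both states may still hold less BCL6 after fasting, which the lists cannot show. From read densities, the study reported that fasting lowered BCL6 binding and raised PPARα binding at sites shared by both factors. Sites within a gene are not independent of each other, and the intervals cover counting error only.

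PPARα was called at more sites in fasted than in fed livers. Of 63 PPARα sites, 36 were called in both states (57.1%, 44.9% to 68.6%), 22 in fasted livers only (34.9%, 24.3% to 47.2%) and 5 in fed livers only (7.94%). All PPARα sites gave 51.3%, 35.8% and 12.8%. The sites called in fasted livers only were mostly those without BCL6. Of 28 PPARα sites with no C57BL/6 BCL6 peak, 18 were fasted only (64.3%, 45.8% to 79.3%), against 52.6% of all such sites. Of 35 PPARα sites with BCL6, 4 were fasted only (11.4%, 4.54% to 26.0%), against 11.7%. The same split was thus seen over all sites.

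PPARδ, the PPAR subtype that is expressed in most tissues, was called at fewer sites in fasted livers. Of 33 PPARδ sites, 20 were called in fed livers only (60.6%, 43.7% to 75.3%), 9 in both states (27.3%, 15.1% to 44.2%) and 4 in fasted livers only (12.1%), against 70.7%, 18.7% and 10.6% of all PPARδ sites. Of the 20 fed-only PPARδ sites, 14 had PPARα in both states (70.0%, 48.1% to 85.5%), against 75.3% overall.

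**Figure D3:**
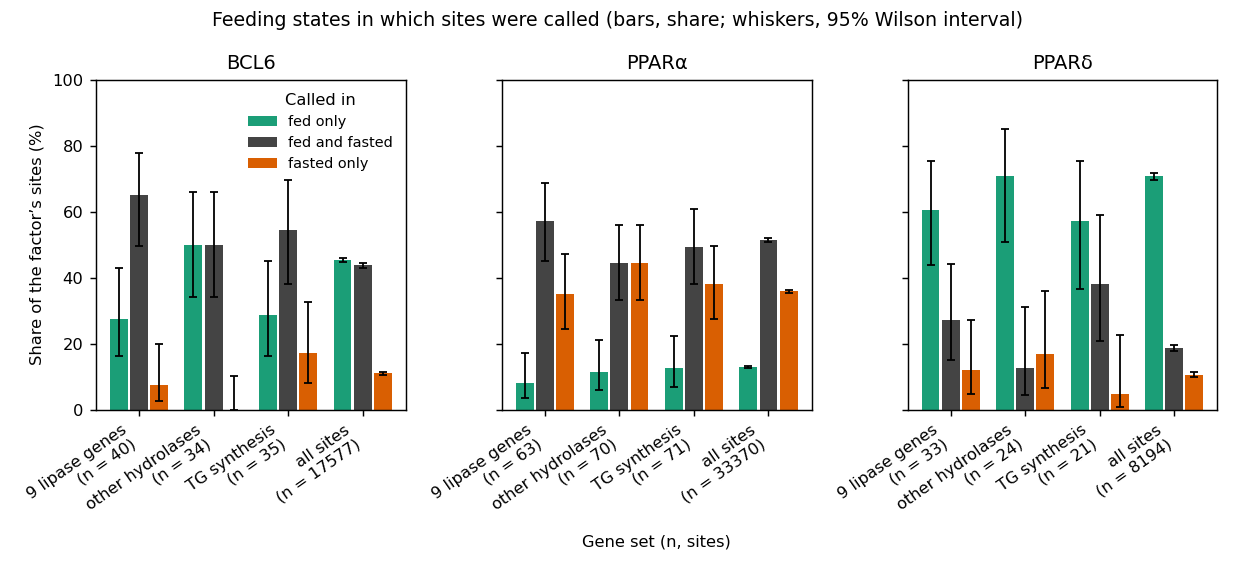
Share of each factor's sites in percent (vertical axis) called in the fed state alone, in both states or in the fasted state alone, for the 9 lipase genes, 18 other lipid hydrolases, 12 genes of triglyceride synthesis (TG) and all sites. Bars are shares, whiskers 95% Wilson intervals for counting error, and n the number of sites. BCL6 sites called in both states make up 65.0% at the 9 genes and 43.7% over all sites.

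The factors met at the same places. Of 40 BCL6 sites, 35 also had PPARα (87.5%, 73.9% to 94.5%), against 77.6% of all BCL6 sites. This share was no lower at 18 other lipid hydrolases (31 of 34, 91.2%) and 12 genes of triglyceride synthesis (32 of 35, 91.4%). Of 63 PPARα sites, 35 had BCL6 (55.6%, 43.3% to 67.2%), against 40.9% of all PPARα sites. In the same groups of lipid genes it was 44.3% and 45.1%. PPARδ coincided with PPARα at 28 of 33 sites (84.8%, 69.1% to 93.3%), close to the 85.1% of all PPARδ sites. The centers of BCL6 and PPARα peaks at a shared site were a median of 18 bp apart, and 34 of 35 pairs were less than 100 bp apart (97.1%). Over all shared sites the median was 14 bp and 97.2% were less than 100 bp apart. All 3 factors were called at 22 of 73 sites (30.1%, 20.8% to 41.4%), against 12.1% of all sites in C57BL/6 lists. Sites called in all 7 lists numbered 7 of 77 (9.09%) and 1.60% of all sites. They lay at *Pnpla3* +800, *Mgll* +2381, *Mgll* +8712, *Abhd2* −24980, *G0s2* −5401, *Lipc* +99873 and *Lipc* +16. At the other extreme, 27 of the 77 sites were in a single list (35.1%), against 39.6% of all sites.

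Among the intracellular hydrolases, *Pnpla2* (chr7:141455188-141460743, plus strand) was the gene with no BCL6 peak in C57BL/6 livers. Both C57BL/6 sites lay in intron 1. PPARα was called in both states at +1072 (chr7:141456125-141456393). At +1711 (chr7:141456777-141457007) PPARα was called only in fasted livers and PPARδ only in fed livers. A DR1 with 2 mismatches was found at each of these sites, AGGGCAAAGGTGA at +1072 and AGGTCAGAGTTGA at +1711. Neither was in a BCL6 list, and the gene's single BCL6 peak, at +602, was called only in Bcl6 fl/fl livers. As many C57BL/6 sites or more were found at 32.7% of all genes, whereas 0.997% reached the same density of 21.4 sites per 100 kb, a value that rests on 2 sites in 9.32 kb.

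*Pnpla3* (chr15:84167776-84189521, plus strand), which encodes a close relative of PNPLA2, had the same number of sites and a different pattern. The site in intron 1 at +800 (chr15:84168483-84168739) was called in all 7 lists. The site 11.6 kb upstream was called in 6, with only fasted PPARδ missing. BCL6 and PPARα were thus present in both feeding states at both sites of this gene.

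*Lipe* (chr7:25379527-25398486, minus strand) has a pair of TSSs in the annotation, and its 5 sites lay within 3.63 kb of them. PPARα was called only in fasted livers at both promoters, at −5 (chr7:25395881-25396103) and −83 (chr7:25390084-25390306). Neither promoter site was in a BCL6 or PPARδ list. PPARα and PPARδ were called in both states at +3630 in intron 2 (chr7:25386370-25386608). The only BCL6 peak, at +2450, was in the fed C57BL/6 list and not in the fed Bcl6 fl/fl list. A fed-only PPARδ peak stood alone at −2146. No site of *Lipe* thus joined BCL6 with a PPAR.

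**Figure D4:**
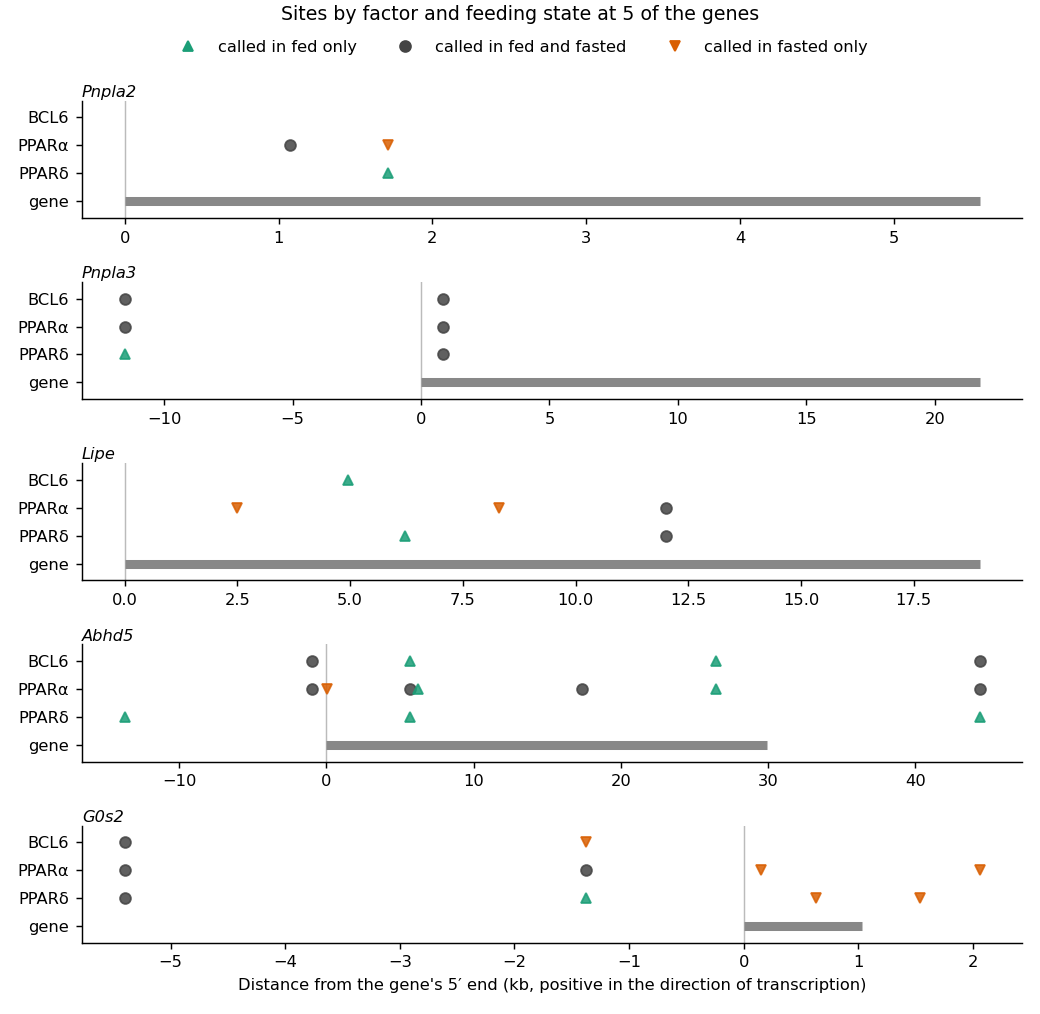
Sites of BCL6, PPARα and PPARδ (rows) at 5 of the genes by distance from the gene's 5′ end in kb (horizontal axis, with a scale of its own for each gene). The gray bar is the gene, triangles pointing up are sites called in fed livers alone, circles in both states and triangles pointing down in fasted livers only. The BCL6 row is empty at *Pnpla2* and holds 1 site at *Lipe*.

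*Mgll* (chr6:88724412-88828360, plus strand) had 12 sites, a number that 1.92% of all genes reached, whereas 10.7% reached its density per 100 kb. In intron 2 stood 2 sites called in all 7 lists, at +2381 (chr6:88726859-88727236) and +8712 (chr6:88733231-88733551), and 1 in 6 lists, at +18174. Between them, at +7562 (chr6:88732150-88732413), PPARα was called in both states, PPARδ in fed livers only and BCL6 in fasted livers only. This site was also in the fed Bcl6 fl/fl BCL6 list, so BCL6 was called there in fed animals of the second group. The site with the exact DR1, at −6823 (chr6:88717468-88717725), was called for PPARα in fasted livers alone, for PPARδ in fed livers alone and for BCL6 in Bcl6 fl/fl livers alone. At +79495, PPARα was called only after fasting in a part of intron 3 whose nearest TSS belongs to *Abtb1*. The lone fed-only BCL6 peak, at +32332, was absent from the floxed list.

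*Abhd2* (chr7:79273266-79361601, plus strand) encodes a hydrolase with reported acylglycerol lipase activity, and the study itself had picked it for ChIP-qPCR, so its inclusion is not independent of BCL6 binding. It had 12 C57BL/6 sites, and 5 of its 7 BCL6 sites were called in both states. Of its 5 upstream sites, 3 had BCL6 and PPARα in both states, at −24980 (chr7:79248170-79248460), −16396 and −13940, and at the latter pair PPARδ was called in fed livers alone. The other 2 differed from these. At −45955 (chr7:79227189-79227433) BCL6 and PPARα were each called in the fed state alone, and at −44681 (chr7:79228457-79228703) PPARα was called in both states, PPARδ after fasting alone and BCL6 in no list. The amplicon of the study's *Abhd2* primers was placed at chr7:79310457-79310532, with 1 match for each primer. Its center was 67 bp from that of the site at +37161 in intron 3 (chr7:79310252-79310557), and it spans the exact BCL6 element there. At this site BCL6 and PPARα were called in both states and PPARδ in fed livers only. Near the TSS, PPARα at +634 and +6320 and PPARδ at +1086 were called only after fasting. The sites at +634 and +1086 were also called for BCL6 in fed Bcl6 fl/fl livers. The site at +38521 (chr7:79311647-79311909) was called for BCL6 in fasted C57BL/6 livers and in fed Bcl6 fl/fl livers, and for PPARα in both states.

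The calls at the genes of the PNPLA2 regulators were not alike, and the difference was not tested. *Abhd5* (chr9:122351616-122381524, plus strand), the activator, had 8 sites and 4 BCL6 sites. BCL6 and PPARα were called in both states at −1010 and at +44380 (chr9:122395869-122396120), which lies downstream of the gene and was called in 6 lists. At +5663 and +26490 BCL6 was present in fed livers alone. PPARα was called in both states at the former and in fed livers only at the latter. In the promoter, at +52 in the 5′ UTR of exon 1 (chr9:122351557-122351779), PPARα alone was called, and only after fasting. *Abhd5* and *Pnpla2* were the genes among the 9 with 0 PPARδ peaks in fasted livers.

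*G0s2* (chr1:193272160-193273188, minus strand), the inhibitor, had 6 sites within a short span. The site at −5401 (chr1:193278441-193278728) was called in all 7 lists. At −1379 (chr1:193274454-193274694) PPARα was called in both states, PPARδ in fed livers only and BCL6 in fasted livers only, and this site was not in the floxed list. From the TSS to just beyond the gene's end, 4 sites were called in 1 fasted list each. PPARα was called at +150 in the 5′ UTR of exon 1, which lies just outside the promoter window, and at +2060. PPARδ was called at +631 in the coding part of exon 2 and at +1540. These make 2 of the 4 fasted-only PPARδ sites of the 9 genes, and the other 2 were at *Abhd2*.

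**Figure D5:**
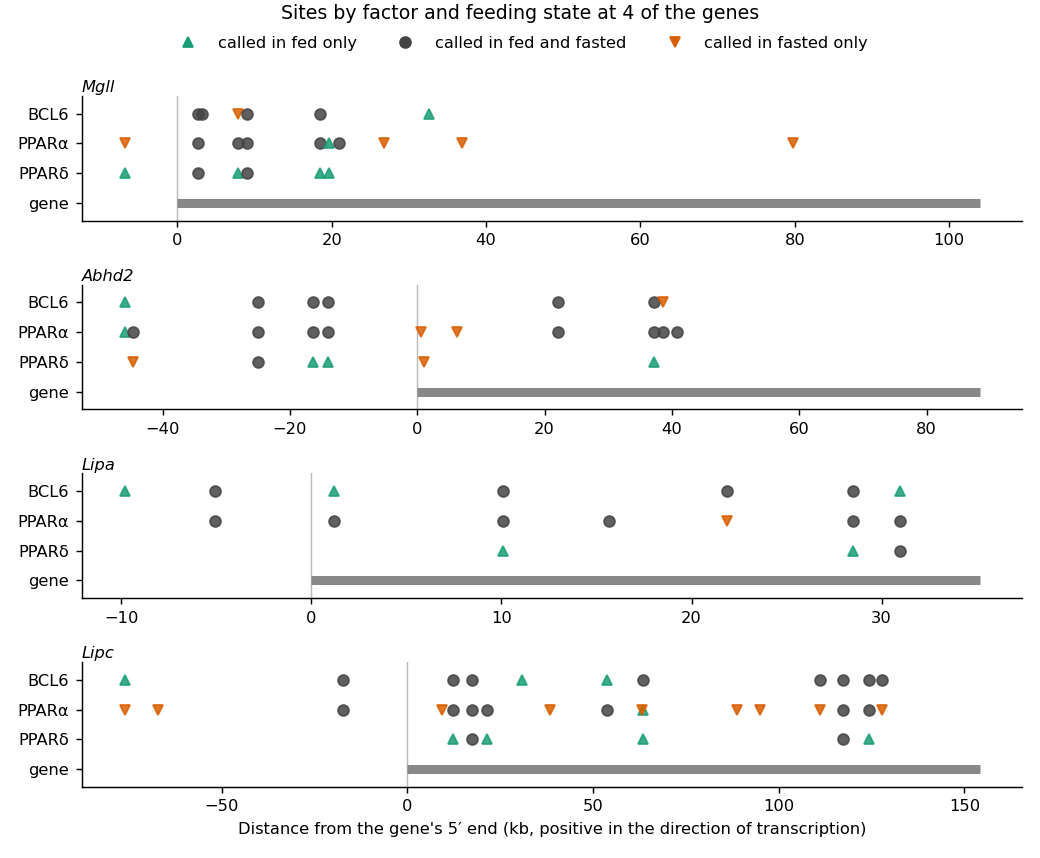
Sites of BCL6, PPARα and PPARδ (rows) at 4 of the genes by distance from the gene's 5′ end in kb (horizontal axis, with a scale of its own for each gene). Symbols stand for fed livers only (triangles pointing up), both states (circles) and fasted livers only (triangles pointing down), and the gray bar is the gene. At *Lipc*, 9 PPARα sites were called in fasted livers only, and none of the 7 PPARα sites of *Lipa* was called in fed livers only.

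*Lipa* (chr19:34492316-34527474, minus strand) was the gene where BCL6 was called at the largest part of sites, 7 of 8, among the members with 3 or more sites. PPARα was at 6 of these 7. At 3 of them the BCL6 call was limited to fed livers, at +30957, +1187 and −9820, and all 3 were also in the floxed list. PPARα was called in both states at the first and second, and in neither state at −9820. Across the lipase genes, PPARα was called in both states at 4 of 11 BCL6 sites called in fed livers only. Over all sites this was 3425 of 7964. The site at +10086 (chr19:34517242-34517523) was called in 6 lists. The sites at +28473 (chr19:34498878-34499164) and +30957, also in 6 lists each, are inside *Lipa* by position, in intron 8, but the nearest TSS is that of *Ch25h*, which encodes cholesterol 25-hydroxylase. At +21847, BCL6 was called in both states and PPARα only after fasting.

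*Lipc* (chr9:70798128-70952221, minus strand) had the most sites, 18 in C57BL/6 livers, a number that 0.551% of all genes reached, whereas 12.5% reached its density per 100 kb. Its 11 BCL6 sites comprised 8 called in both states and 3 called in fed livers only. The site at +16 (chr9:70934617-70934928) sits at the TSS of the shorter transcript, inside intron 1 of the longer one, and was called in all 7 lists. It was the only promoter site of the 9 genes with BCL6. The other site in all 7 lists, at +99873 (chr9:70834804-70835080), is in intron 2, as is +106778 with its exact BCL6 element. PPARα rose from 8 sites in the fed list to 16 in the fasted list, with 9 sites fasted only and 1 fed only. At −76086 (chr9:71028166-71028431) BCL6 was called only in fed livers, in both fed lists, and PPARα only in fasted livers. Of the 35 sites of the 9 genes with both factors it was the only one with this reversal, against 797 of 13639 over all sites. The fed-only PPARα site at +45983 and the fasted-only one at +45664 are close neighbors and became 1 site when centers up to 400 bp apart were joined. Without *Lipc*, 28.3% of the PPARα sites were fasted only.

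Across the genes, the 3 promoter sites that lacked BCL6, at both *Lipe* TSSs and at *Abhd5* +52, were called for PPARα alone and only after fasting, and *Lipc* +16 was the exception. Fasted-only calls were common among promoters in general, at 60.4% of 4359 PPARα promoter sites.

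Some sites without BCL6 in C57BL/6 livers had it in the floxed animals. Of the 28 PPARα sites with no C57BL/6 BCL6 peak, 7 were in the fed Bcl6 fl/fl BCL6 list (25.0%, 12.7% to 43.4%), against 18.0% of all such sites. Of these 7, 3 were at *Mgll*, 2 at *Abhd2*, 1 at *Lipa* and 1 at *Lipc*. Of the 3 BCL6 sites called only in fasted C57BL/6 livers, 2 were in that fed list, against 49.1% overall. A further 4 sites, 2 of them at *Lipc*, were in the floxed list alone, as were 2026 of all 40474 sites.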

How the data were processed

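ChIP-seq libraries of mouse liver were aligned by the authors to mm10 with Bowtie, keeping uniquely mapped reads and 1 read per start position. Peaks were found by the authors with HOMER after pooling 3 replicates, with input as control, and the authors used DESeq2 to keep enriched peaks. The 7 deposited lists hold chromosome, start and end only, so no normalization applies, depth is unknown, and 21 of 59 samples are covered. The others were not used here. Peaks of a list share a width of 192 to 222 bp.

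Peaks from all lists with centers within 200 bp, the study's distance, were joined into sites by single linkage. TSSs were the 5′ ends of RefSeq transcripts of 21774 protein-coding genes on GRCm38 (26906 TSSs). Shares have 95% Wilson intervals, which cover counting error only. No test was made, because each group is 1 list. All 9 genes are named. Positions are given for each gene's most widely called sites, promoter sites and sites whose change differed between factors, and others were named after their values were seen. The genes, lists and rules were chosen with earlier results of these data known. The functions were tested on simulated data. Computations used Python 3.11.15 with SciPy 1.17.1 and NumPy 2.4.6, and plots used Matplotlib 3.10.9. Alternatives changed the joining distance, the reach of the TSS, the assignment rule, the fed BCL6 list and the motif window.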

Additional observations from a re-analysis of the deposited data

How the results depend on the processing

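Under 11 other settings, 104 of 105 recomputed values stayed within 1.5 times the reported count or within the 95% Wilson interval of the reported share. Most settings kept nearly the same sites and the intervals are wide, so such agreement was likely from the start. The settings that left out the floxed list from joining or left out *Lipc* were added after seeing the data. The value outside its interval was the share of sites with a BCL6 element, which was 13.0% in windows of 100 bp and 22.1% in windows of 200 bp. A narrower window has less sequence in which to match, and the share over all sites was 6.61% and 10.9%. The number of BCL6 sites ran from 36 to 40, of PPARα sites from 58 to 63 and of PPARδ sites from 30 to 33, with the lowest values when only the nearest TSS counted. No paired analysis was possible because each list pools its replicates and carries no replicate numbers, and for the same reason no replicate could be left out. Unknown depth and missing peak heights limit every call of a site as lost or gained.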

Other observations

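Further groups of lipid genes were described by the same rules, namely 18 other lipid hydrolases and 12 genes of triglyceride synthesis. The name of the first group is loose, because not every gene in it encodes a hydrolase, *Hilpda* being an example. The other hydrolases had 78 C57BL/6 sites, with a median of 4 per gene and 5.34 per 100 kb. Each of the 18 had at least 1 site and 14 had a BCL6 site. *Lpl*, which encodes the lipase of blood vessel walls, *Ldah*, which encodes a hydrolase on lipid droplets, *Hilpda*, which encodes a small inhibitor of PNPLA2, and *Lipg*, the endothelial lipase, had the most, 8 each. *Hilpda* reached 24.6 sites per 100 kb, and 5.22% of all genes had 8 sites or more. At these genes 17 of 34 fed BCL6 sites were called again after fasting (50.0%, 34.1% to 65.9%), close to the 49.1% of all fed BCL6 sites. No BCL6 site was called in fasted livers only.

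The genes of triglyceride synthesis had 75 C57BL/6 sites, with a median of 6.5 per gene and 6.28 per 100 kb. *Dgat2*, which adds the last fatty acid to diacylglycerol, had 15 sites and 26.3 sites per 100 kb, whereas *Dgat1*, which catalyzes the same step, and *Lpin3* had 0. *Gpam*, the mitochondrial enzyme of the first step, had 11. Of 29 fed BCL6 sites, 19 were called again after fasting (65.5%, 47.3% to 80.1%). All 3 factors met at 16 of the 75 sites (21.3%, 13.6% to 31.9%), against 17.9% at the other hydrolases and 12.1% of all sites. Differences between these groups and the 9 lipase genes were not tested.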
